A study of Homo sapiens with 4 samples.

Results

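The genes described here are 10 genes of the epithelial program: EPCAM, CDH1 (E-cadherin), the keratins KRT7, KRT8, KRT18 and KRT19, the claudins CLDN3, CLDN4 and CLDN6, and the splicing regulator ESRP1. They were taken by gene symbol, each symbol had a single row, and they make up 10 of the 58365 rows of the expression table. RNA-seq was performed at day 8 of stepwise hematopoietic differentiation of H1, a long-established line of human embryonic stem cells (hESCs). All cells first received activin A and BMP4 for 2 days and VEGF and bFGF for 3 days. They then received VEGF and bFGF for a further 3 days. The controls had the vehicle DMSO, as the titles of the libraries call them (DMSO, 2 libraries). The others had SB431542, which the study uses as an inhibitor of TGFβ signaling (SB, 2 libraries). No genetic change was made, and all libraries come from this single line. The study describes sequencing CD31+ cells, which the sample labels do not mention. The study's methods speak of independent experiments for its analyses in general, but the labels do not say whether the 2 libraries of a group come from separate differentiations, so the p-values below measure the spread between these libraries, which may be technical.

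Keratins are intermediate filament proteins that form obligate pairs of a type II and a type I chain. KRT8 with KRT18 is the first pair of simple epithelia, KRT19 is a further type I chain and KRT7 a further type II chain. E-cadherin builds the adherens junctions between epithelial cells, EPCAM is a surface adhesion protein of epithelia, and claudins form the barrier of the tight junction. ESRP1 directs the epithelial pattern of splicing. Undifferentiated hESCs are themselves an epithelial cell type and express several of these genes, as do endoderm, amnion and mesothelium, whereas endothelium uses VE-cadherin (CDH5) and claudin-5 (CLDN5) in their place. TGFβ is best known in epithelia for driving their conversion to mesenchyme, in which E-cadherin is lost.

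Because CLDN3, CLDN4 and CLDN6 all had lower values with SB431542, the DNA just upstream of their start sites is shown for reference. RefSeq promoter windows (GRCh38.p14) were found for 4 of the 10 genes, and those of these claudins are printed for the 250 bases before the start, 5′ to 3′ on the strand of the gene. Capitals mark the GC box letters GGGCGG on either strand. The windows are CLDN3 at chr7:73770271-73770520 (minus strand), CLDN4 at chr7:73830746-73830995 (plus strand) and CLDN6 at chr16:3018184-3018433 (minus strand). Each window belongs to 1 start site. The bases just after it were found in 1 of 1 annotated transcripts of CLDN3, 3 of 5 of CLDN4 and 2 of 3 of CLDN6. Other start sites of CLDN4 and CLDN6 are not shown, while the expression values are per gene.
CLDN3: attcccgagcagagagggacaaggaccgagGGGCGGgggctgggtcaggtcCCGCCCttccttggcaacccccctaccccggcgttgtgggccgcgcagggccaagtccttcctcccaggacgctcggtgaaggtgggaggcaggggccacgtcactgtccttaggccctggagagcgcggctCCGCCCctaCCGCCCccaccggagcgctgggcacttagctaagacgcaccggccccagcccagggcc
CLDN4: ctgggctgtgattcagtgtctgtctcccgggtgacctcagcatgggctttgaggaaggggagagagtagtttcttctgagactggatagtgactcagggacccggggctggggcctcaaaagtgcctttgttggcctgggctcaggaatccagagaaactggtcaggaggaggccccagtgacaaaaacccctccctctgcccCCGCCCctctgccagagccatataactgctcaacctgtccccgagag
CLDN6: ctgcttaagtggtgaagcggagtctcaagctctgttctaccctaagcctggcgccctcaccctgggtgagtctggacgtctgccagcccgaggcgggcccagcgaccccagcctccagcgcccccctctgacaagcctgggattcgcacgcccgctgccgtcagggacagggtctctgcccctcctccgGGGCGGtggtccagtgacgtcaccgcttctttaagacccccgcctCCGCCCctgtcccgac
The GC box letters occurred 4 times for CLDN3, once for CLDN4 and 2 times for CLDN6, and 42.6% of the 35116 promoter windows in RefSeq hold them at least once. The windows are rich in G and C for CLDN3 (71.6%) and CLDN6 (68%), and CLDN4 (58.8%) lies near the median of all promoters (58%).

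The letters CACCTG, the E-box that SNAIL and ZEB repressors of E-cadherin recognise, were searched on both strands. They were in none of these 3 stretches (0 matches), against 17.5% of all promoters, but lay shortly after the start in the CLDN3 and CLDN6 windows. Capitals mark the E-box at base 37 of CLDN3 (chr7:73770221-73770244, minus strand) and base 33 of CLDN6 (chr16:3018137-3018160, minus strand), counted from the start site as base 1.
CLDN3 E-box: aagccacaggCAGGTGcaggcgca
CLDN6 E-box: tctccttcgCAGGTGagtccgggg
With these 50 bases included, 20.6% of all promoter windows hold the letters. A match is a description of the sequence only.

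Values are FPKM, fragment numbers scaled to the length of the transcript and to the mapped fragments of the library, and can be compared between genes because they are per length. From single-exon genes, whose low values step by what 1 fragment is worth, the depth was estimated at 19.6 to 25.8 M fragments (M, 1e6) per library, lowest in SB replicate 1. Between 95.9% and 96.6% of such values lay within 0.03 of a whole fragment number. The libraries separated by replicate number (first principal component, 47.4% of the variance) as well as by treatment (second, 38.7%), so values are also given within each number. Mitochondrial genes held 5.88% and 6.64% of the FPKM sum in replicate 1 of DMSO and SB, and 9.92% and 10.2% in replicate 2. Genes were compared on log2(FPKM + 1) with limma, which tested 14909 genes with a mean of at least 1 FPKM in at least 1 group. Fold changes on this scale are SB minus DMSO and understate the change of low genes.

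Of the 10 genes, 9 had lower values in both SB libraries than in both DMSO libraries, and KRT7 was the exception. Over all tested genes, both SB libraries were below both DMSO libraries in 16% and above both in 21.5%. Of the 10 genes, 8 passed the filter on low values, 2 of them (CLDN4 and ESRP1) through their DMSO level only, and CLDN3 and KRT7 were not tested. The adjusted p of limma stayed at or above 0.0807 for the tested genes, so that 0 of 8 passed the threshold of 0.05. Of all 14909 tested genes, 20 passed it (0.134%), 16 of them with lower values in SB (0.107%). Without a block, the unadjusted p of limma was under 0.05 for all 8, against 9.96% of all tested genes. This count was 6 of 8 with quantile normalization and 7 of 8 with a pseudocount of 0.1, beside 1424 and 1481 of all 14909 tested genes. It was 7 of 7 with the filter on the mean over all libraries, beside 1377 of 14318 tested genes. With the replicate number as a block it was 7 of 8, beside 4539 of all 14909 tested genes. With this block, 5 of the 8 also passed the adjusted threshold, beside 10.5% of all tested genes. The labels do not say that a replicate number marks a shared culture. The 10 genes were chosen with earlier results of these data known, so these counts are a description and not a test. The log2 fold change was below 0 for 9 of the 10 genes and -1 or less for 4 of them, against 43.8% and 2.16% of all tested genes. The count of 4 depends on the pseudocount, and was 8 with a pseudocount of 0.1. The median log2 fold change over all 10 genes was -0.84, beside 0.04 over all tested genes. With 2 libraries a group an exact permutation test cannot reach p = 0.05, and none was used.

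**Figure D1:**
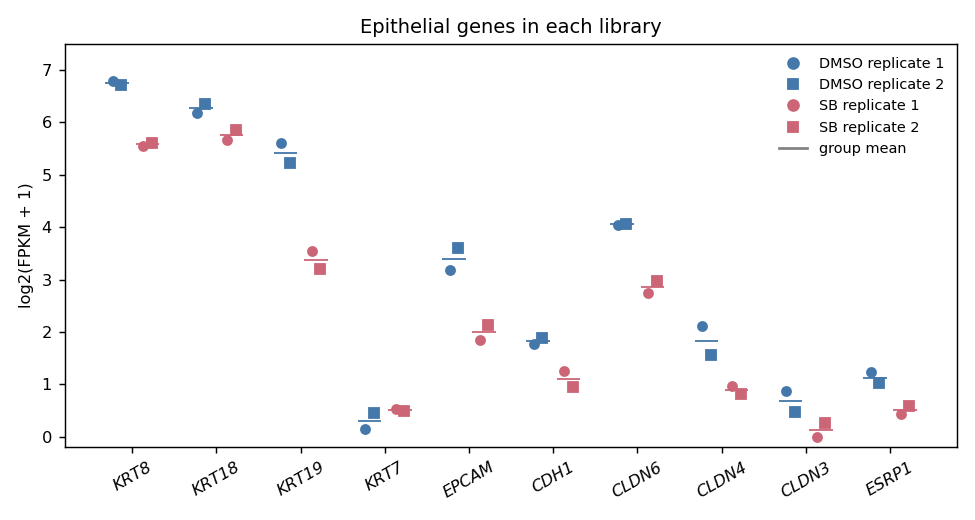
Level of each of the 10 epithelial genes as log2(FPKM + 1) on the vertical axis. Points are libraries (circles replicate 1, squares replicate 2, blue DMSO, red SB) and lines are group means. For 9 genes both red points lie below both blue points, and for KRT7 both lie above.

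The keratins were the most abundant of these genes. KRT8, KRT18 and KRT19 together held 87.9% and 86.9% of the summed FPKM of the 10 genes in the DMSO libraries and 90.4% and 89.7% in the SB libraries. The sum over all 10 genes was 261 and 255 FPKM with DMSO and 118 and 125.7 FPKM with SB431542.

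KRT8 (ENSG00000170421.12, GRCh38 chromosome 12, 52897187 to 52949954, minus strand), the type II chain of simple epithelia, stood at 109.9 and 104 FPKM with DMSO and at 46.1 and 47.9 FPKM with SB431542. The groups were far apart compared with the spread within each. The mean level was 56.1% lower with SB431542 (107 ± 4.23 against 47 ± 1.27 FPKM, SD, n = 2 each). On the log2 scale this was a difference of -1.17 (95% interval -1.57 to -0.77, limma adjusted p 0.105).

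KRT18 (ENSG00000111057.10, chromosome 12, 52948871 to 52952901, plus strand), the type I partner of KRT8, stood at 71.4 and 81 FPKM with DMSO and at 50 and 56.7 FPKM with SB431542. Its groups did not overlap, but they lay closer together than those of KRT8. The log2 fold change was -0.51 (95% interval -0.95 to -0.06, limma adjusted p 0.445), and its FPKM was 30% lower within both replicate numbers.

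KRT19 (ENSG00000171345.13, chromosome 17, 41523617 to 41528308, minus strand), a type I keratin that can also pair with KRT8, stood at 48 and 36.7 FPKM with DMSO and at 10.6 and 8.14 FPKM with SB431542. Of the 10 genes it had the largest log2 fold change, -2.06 (SE 0.23, 95% interval -2.65 to -1.47), and the smallest limma adjusted p, 0.0807. Within replicate 1 the SB value was 77.9% below the DMSO value, and within replicate 2 it was 77.8% below.

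KRT7 (ENSG00000135480.15, chromosome 12, 52232520 to 52252186, plus strand), a type II keratin of ducts and amnion, was near the bottom of the scale in each library. It stood at 0.111 and 0.363 FPKM with DMSO and at 0.441 and 0.401 FPKM with SB431542. Both SB values were above both DMSO values, but the DMSO libraries differed from each other by more than DMSO replicate 2 did from either SB library.

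The balance between the keratin chains differed along with their level. KRT8 was above KRT18 in both DMSO libraries (ratio of FPKM 1.54 and 1.28) and below it in both SB libraries (0.921 and 0.844). The ratio of KRT19 to KRT18 was 0.672 and 0.452 with DMSO and 0.212 and 0.143 with SB431542. For the type II chains KRT7 and KRT8 over the type I chains KRT18 and KRT19, the ratio was 0.922 and 0.887 with DMSO and 0.767 and 0.744 with SB431542. No test was run on these ratios, whose groups did not overlap in any of the 3 cases.

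Processed copies of the keratin genes bear on these values, since their reads can be shared with the parent gene. The 50 KRT8 pseudogene rows (named KRT8P and a number) summed to 4.86 and 4.67 FPKM with DMSO and to 4.58 and 5.47 FPKM with SB431542. This was 4.42% and 4.49% of the KRT8 level with DMSO, and 9.94% and 11.4% with SB431542. The most abundant copy, KRT8P12, stood at 1.20 and 1.88 FPKM with DMSO and at 2.18 and 2.74 FPKM with SB431542 (log2 fold change 0.45, limma adjusted p 0.672). The 68 KRT18 copies summed to at most 2.23% of KRT18 in any library, and the 5 KRT19 copies to at most 1.99% of KRT19. The annotated spans of KRT8 and KRT18 overlap by 1084 bases on opposite strands, with 525 bases of exon on exon. Whether the counting used strand is not given, so reads there cannot be assigned with certainty.

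EPCAM (ENSG00000119888.10, chromosome 2, 47345158 to 47387601, plus strand) stood at 8.09 and 11.1 FPKM with DMSO and at 2.59 and 3.39 FPKM with SB431542. The lowest DMSO value was above the highest SB value by more than the spread within either group. The log2 fold change was -1.40 (SE 0.23, 95% interval -2.0 to -0.80, limma adjusted p 0.161), and the SB value was 67.9% below the DMSO value within replicate 1 and 69.6% below within replicate 2.

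CDH1 (ENSG00000039068.18, chromosome 16, 68737225 to 68835548, plus strand) was low in all libraries, at 2.42 and 2.71 FPKM with DMSO and at 1.38 and 0.929 FPKM with SB431542. The log2 fold change was -0.73 (95% interval -1.30 to -0.16, limma adjusted p 0.381). CDH5, the cadherin of endothelium, was 113 and 90.8 times the level of CDH1 with DMSO and 162 and 217 times with SB431542, at 273, 246, 224 and 202 FPKM in DMSO 1, DMSO 2, SB 1 and SB 2.

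Among the claudins, CLDN6 (ENSG00000184697.6, chromosome 16, 3014712 to 3020071, minus strand), a claudin of embryonic epithelia and pluripotent cells, was the most abundant member. It stood at 15.5 and 15.8 FPKM with DMSO and at 5.66 and 6.81 FPKM with SB431542. The DMSO values were nearly equal and the SB values were well below them, with a log2 fold change of -1.21 (SE 0.17, 95% interval -1.66 to -0.76, limma adjusted p 0.125). Its span overlaps TNFRSF12A on the opposite strand (40 bases of exon on exon), which stood at 7.57 and 6.20 FPKM with DMSO and 3.89 and 3.98 FPKM with SB431542.

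CLDN4 (ENSG00000189143.9, chromosome 7, 73799542 to 73832693, plus strand) stood at 3.34 and 1.93 FPKM with DMSO and at 0.962 and 0.747 FPKM with SB431542 (log2 fold change -0.95, 95% interval -1.66 to -0.23, limma adjusted p 0.365). The DMSO libraries differed more from each other than the SB libraries did. CLDN3 (ENSG00000165215.6, chromosome 7, 73768997 to 73770270, minus strand), its neighbour in the genome, stood at 0.824 and 0.388 FPKM with DMSO, at 0 in SB replicate 1 and at 0.194 FPKM in SB replicate 2. As a gene of 1 exon its values could be read as about 20, 9, 0 and 5 fragments. The 0 allows up to 3 fragments, or 0.155 FPKM in that library, counting error only.

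ESRP1 (ENSG00000104413.15, chromosome 8, 94641074 to 94707466, plus strand) stood at 1.34 and 1.02 FPKM with DMSO and at 0.342 and 0.502 FPKM with SB431542. The groups did not overlap, and the 95% interval of the log2 fold change of -0.61 reached from -1.23 to -0.0029 (limma adjusted p 0.499). Its paralog ESRP2 did not reach 1 FPKM in any library, at 0.910 and 0.748 FPKM with DMSO and 0.771 and 0.678 FPKM with SB431542.

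**Figure D2:**
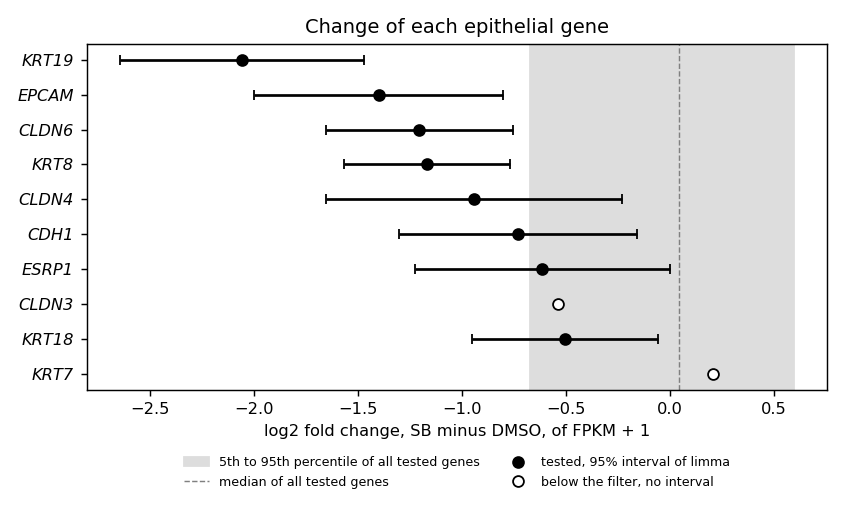
The log2 fold change of each gene (horizontal axis, SB minus DMSO, of FPKM + 1). Filled points have the 95% interval of limma, open points are CLDN3 and KRT7, which were below the filter. The grey band holds the 5th to the 95th percentile of all 14909 tested genes, -0.67 to 0.59. KRT19, EPCAM, CLDN6 and KRT8 have their whole intervals to the left of the band.

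By level, the order with DMSO was KRT8, KRT18, KRT19, CLDN6, EPCAM, CLDN4, CDH1, ESRP1, CLDN3 and KRT7. CLDN4 and CDH1 overlapped, as the CDH1 values lay between those of CLDN4. With SB431542 the order was KRT18, KRT8, KRT19, CLDN6, EPCAM, CDH1, CLDN4, ESRP1, KRT7 and CLDN3. There CDH1 overlapped CLDN4, and KRT7 lay between the 2 values of ESRP1.

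Related genes were read from 8 further lists with 108 genes, of which 62 were tested. Of these lists, 6 hold epithelial genes (92 genes, 50 tested), and 2 hold repressors of E-cadherin and proteins that link to keratins (16 genes, 12 tested). Of the 50 tested epithelial genes, 0 passed the adjusted threshold of limma, 11 had an unadjusted p under 0.05 and lower values with SB431542, and 0 had one with higher values. Over all tested genes the unadjusted shares were 5.16% lower and 4.8% higher. Both SB libraries were below both DMSO libraries for 20 of the 50 genes, and above both for 4, against 16% and 21.5% of all tested genes. The filter bears on these counts, as 7 of the 50 were tested through their DMSO mean only and 1 through its SB mean only. Among the 11 lower genes these were PKP3, RAB25 and HNF4A, and with the filter on the mean over all libraries the count was 9 of 46.

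In the tight junction list 0 of 11 tested genes had an unadjusted p under 0.05, against 9.96% of all tested genes. CLDN7, a claudin that binds EPCAM and the most abundant claudin of the list, stood at 74.8 and 69.2 FPKM with DMSO and at 61.1 and 57.7 FPKM with SB431542 (log2 fold change -0.27, 95% interval -0.68 to 0.14, limma adjusted p 0.718). CLDN6 was 17.2% and 18.6% of the sum of CLDN6 and CLDN7 with DMSO, and 8.48% and 10.6% with SB431542. CLDN10 stood at 16.3 and 15 FPKM with DMSO and 17.5 and 20.1 FPKM with SB431542, and the junction adaptor CGN at 10.4 and 10.1 FPKM against 8.25 and 8.35 FPKM.

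Of the adherens junction and desmosome list, 3 of 12 tested genes had an unadjusted p under 0.05, all lower. Over all tested genes the share that was lower was 5.16%. CDH3 (P-cadherin) stood at 4.53 and 3.95 FPKM with DMSO and at 2.13 and 1.17 FPKM with SB431542 (log2 fold change -1.0, limma adjusted p 0.302). The desmosomal plakophilins PKP3 and PKP2 had log2 fold changes of -0.83 and -0.63 (limma adjusted p 0.330 and 0.387). In the apical and polarity list this held for 4 of 12 genes, with EPS8L2 (-1.24, adjusted p 0.217), the polarity kinase PRKCZ (-0.99, 0.245) and the recycling GTPase RAB25 (-0.85, 0.313) having the smallest p.

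Among surface genes that act with EPCAM or in the same epithelia, 3 of 9 tested genes had an unadjusted p under 0.05, all lower. This share was 5.16% over all tested genes. PRSS8, a membrane-anchored serine protease of epithelia, stood at 6.30 and 5.54 FPKM with DMSO and at 1.69 and 1.58 FPKM with SB431542 (log2 fold change -1.39, limma adjusted p 0.105). PROM1 (CD133) and the protease inhibitor SPINT1 had log2 fold changes of -0.92 and -0.70 (limma adjusted p 0.267 and 0.405). Of the epithelial regulators, 5 of 18 genes were tested, and the hepatic and gut factor HNF4A, which is also a hepatic endoderm marker, had the smallest p, at 1.52 and 0.673 FPKM with DMSO and 0.172 and 0.0516 FPKM with SB431542 (limma adjusted p 0.449). RBM47 and KLF5 had log2 fold changes of -0.39 and -0.32 (limma adjusted p 0.735 and 0.760).

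Of the repressors of E-cadherin, 2 of 7 tested genes had an unadjusted p under 0.05, both with lower values in SB. This share was 5.16% over all tested genes. SNAI2 stood at 8.27 and 8.58 FPKM with DMSO and 3.52 and 4.36 FPKM with SB431542 (log2 fold change -0.94, limma adjusted p 0.208), and SNAI1 had a log2 fold change of -0.81 (adjusted p 0.288). ZEB2 stood at 36.5 and 51.4 FPKM with DMSO and at 50.9 and 76.4 FPKM with SB431542, so that its groups overlapped (log2 fold change 0.52, limma adjusted p 0.694). Within each replicate number its SB value was above its DMSO value.

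Of 14 other keratins only KRT10, a keratin of stratified epithelia, was tested, and it stood at 21.2 and 19.7 FPKM with DMSO and at 23.4 and 26.1 FPKM with SB431542 (log2 fold change 0.26, limma adjusted p 0.745). The stratified keratins KRT1, KRT5, KRT6A, KRT13 and KRT14 and the gut keratin KRT20 were listed at 0 in all 4 libraries. Of the keratin linkers, 0 of 5 tested genes had an unadjusted p under 0.05, against 9.96% of all tested genes. HSPA8, TRADD and DST had log2 fold changes of 0.33, -0.31 and 0.20 (limma adjusted p 0.640, 0.769 and 0.831).

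**Figure D3:**
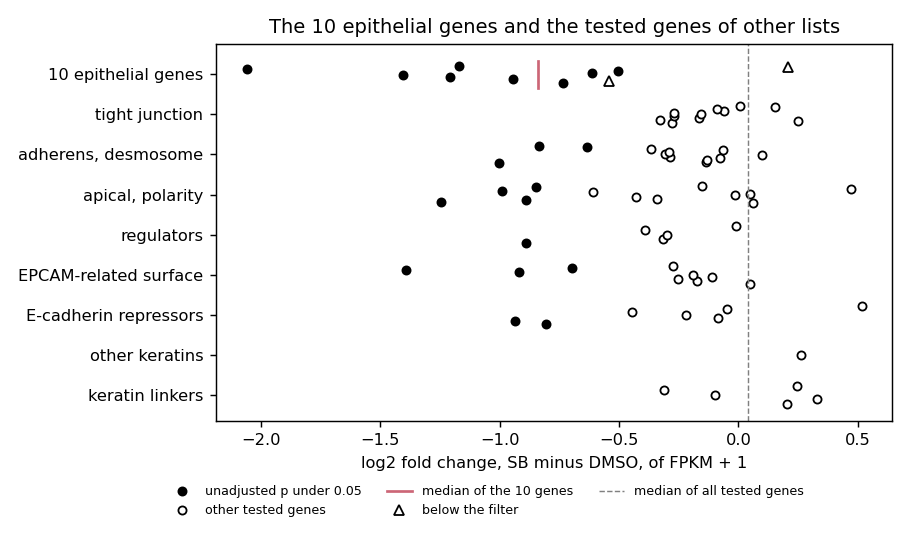
The log2 fold change (horizontal axis, SB minus DMSO, of FPKM + 1) of the 10 genes and of the tested genes of 8 other lists, 6 epithelial and 2 of E-cadherin repressors and keratin linkers. Filled points had an unadjusted p under 0.05, triangles are the 2 genes below the filter, the red line is the median of the 10 genes (-0.84) and the dashed line that of all tested genes (0.04). The 13 filled points outside the top line all lie at negative values.

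Genes of mesenchyme and endothelium that stand in for these proteins in non-epithelial cells were read in the same way. Of 9 tested genes, 5 had an unadjusted p under 0.05 and lower values with SB431542, and 2 had one with higher values. Over all tested genes these shares were 5.16% and 4.8%. The matrix gene FN1 had a log2 fold change of -2.10 (limma adjusted p 0.0646) and the mesenchymal cadherin CDH11 one of -0.90 (limma adjusted p 0.168). CLDN5 stood at 121 and 79.4 FPKM with DMSO and at 231 and 177 FPKM with SB431542 (log2 fold change 1.04, limma adjusted p 0.318).

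Marker lists of other cell types were read beside these values. The study describes a sort for CD31, and its purity cannot be read from these data. In bulk RNA, fewer cells of a type and less RNA per cell cannot be told apart. The 10 endothelial markers summed to 1857 and 1633 FPKM with DMSO and to 1814 and 1625 FPKM with SB431542, and all 10 reached 1 FPKM in both groups. The 12 hepatic endoderm markers summed to 226 and 207 FPKM with DMSO and to 65.7 and 32.7 FPKM with SB431542, with 10 at or above a mean of 1 FPKM with DMSO and 4 with SB431542. Of the 10 tested, 3 passed the adjusted threshold of limma, against 0.134% of all tested genes. They were AFP, TTR and APOA1, with log2 fold changes of -3.55, -3.0 and -3.81. SOX17, which endothelium also expresses, stood at 53.3 and 17.5 FPKM with DMSO and at 49.3 and 17.3 FPKM with SB431542. Without it, a choice made after seeing the data, the other 11 hepatic endoderm markers summed to 172 and 189.6 FPKM with DMSO and to 16.4 and 15.4 FPKM with SB431542. The 10 cardiac and mesenchymal markers summed to 291 and 219 FPKM with DMSO and to 92.6 and 80.5 FPKM with SB431542. Most of this sum came from the collagens COL1A1 and COL3A1. COL1A1 stood at 107 and 78.5 FPKM with DMSO and at 17.1 and 14.8 FPKM with SB431542. COL3A1 stood at 119 and 95.3 FPKM with DMSO and at 55.3 and 47.9 FPKM with SB431542. All 8 tested markers of the list were lower in both SB libraries than in both DMSO libraries, against 16% of all tested genes. PDGFRB had a log2 fold change of -0.16 (limma adjusted p 0.884). The hepatic endoderm and the cardiac and mesenchymal sums were lower with SB431542, like that of the epithelial genes. Their part in the epithelial values was not tested.

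The 10 pluripotency markers summed to 115 and 130 FPKM with DMSO and to 148 and 161 FPKM with SB431542, while NANOG was at most 0.0261 FPKM in each library. Most of this sum came from LIN28A, DNMT3B and DPPA4, and LIN28A stood at 42.6 and 51 FPKM with DMSO and at 65.2 and 76 FPKM with SB431542 (limma adjusted p 0.409). The list did not have a single direction, as POU5F1 had a log2 fold change of 0.72 and TDGF1 one of -0.70 (limma adjusted p 0.403 and 0.480). The 12 trophoblast and amnion markers summed to 72 and 51.4 FPKM with DMSO and to 58.3 and 39.5 FPKM with SB431542, with CGB5 listed at 0 in all libraries and TFAP2A between 3.56 and 3.85 FPKM. GATA3 made up most of these sums, at 51.6 and 31.7 FPKM with DMSO and 49.5 and 30.2 FPKM with SB431542 (log2 fold change -0.06, limma adjusted p 0.987). Of 5 tested markers of this list, both SB libraries were below both DMSO libraries for 2, HAND1 and ISL1, and above both for 0. HAND1, a factor of amnion and of heart and lateral mesoderm, stood at 11.6 and 11.1 FPKM with DMSO and at 2.34 and 1.98 FPKM with SB431542 (log2 fold change -1.97, limma adjusted p 0.0646). ISL1 stood at 1.51 and 1.65 FPKM with DMSO and at 0.631 and 0.938 FPKM with SB431542 (log2 fold change -0.53, limma adjusted p 0.548). The 10 mesothelial markers summed to 41.7 and 39.5 FPKM with DMSO and to 28.8 and 30.1 FPKM with SB431542. PODXL made up most of these sums, at 31.1 and 31.4 FPKM with DMSO and 22.4 and 24.1 FPKM with SB431542. Of 5 tested mesothelial markers, both SB libraries were below both DMSO libraries for 3 and above both for 1. For both lists, these shares were 16% and 21.5% over all tested genes. LRRN4 had a log2 fold change of -0.74 and WT1 one of 0.35 (limma adjusted p 0.350 and 0.773). The 10 hematopoietic markers summed to 457 and 393 FPKM with DMSO and to 753 and 642 FPKM with SB431542.

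**Figure D4:**
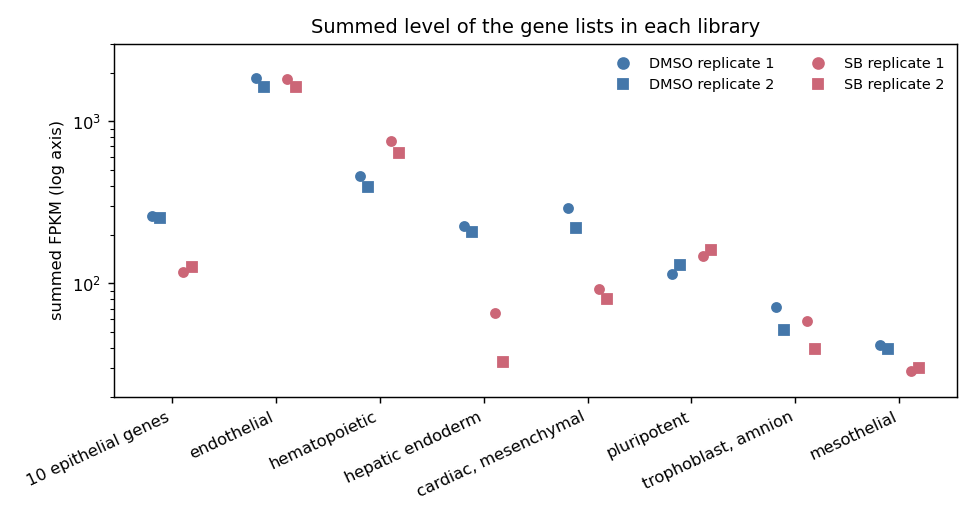
Summed FPKM (vertical log axis) of the 10 epithelial genes and of 7 marker lists in each library (circles replicate 1, squares replicate 2, blue DMSO, red SB). The epithelial, hepatic endoderm, cardiac and mesenchymal, and mesothelial sums were lower in both SB libraries than in both DMSO libraries, and the endothelial sums overlapped. Most of the mesothelial sum came from PODXL, and most of the cardiac and mesenchymal sum from COL1A1 and COL3A1.

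The genes whose values were most like the median profile of the 10 genes were TNFRSF21, HLA-DQB1, RASSF4, CDH11 and SH3BP4. Likeness was the root mean square distance of mean-centred log2(FPKM + 1) over the 4 libraries, which was 0.0228 to 0.0576 for these genes among 10004 genes with a mean of at least 5 FPKM. TNFRSF21, the closest, stood at 14.5 and 14 FPKM with DMSO and at 7.63 and 7.17 FPKM with SB431542.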

How the data were processed

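RNA-seq of 4 libraries (2 DMSO, 2 SB) was processed by a service company. The authors deposited FPKM values in 58365 rows, with no scaling between libraries stated. The submitters' processing notes name BWA, Bowtie, RSEM and hg19 without roles, but of the identifiers 95.5% were in GENCODE release 29, and 99.8% of these rows had its GRCh38 position, which is used here (starts raised by 1 to count from 1). ESRP1 carries another identifier version. Groups came from the sample titles.

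The 10 genes and all lists were chosen with earlier results of these data known. Values were taken as log2(FPKM + 1), genes with a mean of at least 1 FPKM in at least 1 group were tested with limma 3.58.1 in R 4.3.3 (empirical Bayes with trend, group as the only term), with Benjamini-Hochberg adjustment of two-sided p-values over all tested genes. The fit was also run on simulated data, which held no difference between replicate numbers, unlike these libraries. Those data therefore do not show how the fit behaves here. Named genes were all 10 genes, up to 3 genes per epithelial list with the smallest p, the 5 genes of the most similar profile, and the most abundant pseudogene; marker genes, ESRP2, CDH5 and TNFRSF12A were named after their values were seen. A symbol with several rows was read from its most abundant row. Depth was estimated from 1-exon genes by a scan over the value of 1 fragment and a length offset. Alternatives were other filters, scalings and pseudocounts, a replicate block and the removal of each library.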

Additional observations from a re-analysis of the deposited data

How the results depend on the processing

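Over the alternatives run, log2 fold changes reached from -2.25 to -1.87 for KRT19, -1.65 to -1.19 for EPCAM and -1.21 to -1.13 for KRT8. They reached from -1.32 to -1.09 for CLDN6 and -0.60 to -0.42 for KRT18. The direction of each of the 10 genes was kept, but only the other scalings could have changed it. The filters and the replicate block leave the fold change as it is. As the groups of all 10 genes did not overlap, neither a removed library nor another pseudocount could reverse it. The labels do not say that a replicate number marks a shared culture, and with 2 pairs the data cannot establish it; the deviations of DMSO replicate 1 and SB replicate 1 from their group means correlated over genes (r = 0.528, across genes, which are not independent). With the replicate number as a block, 1564 genes (10.5%) passed in place of 20, among them 5 of the 10 genes (KRT8, KRT18, KRT19, EPCAM and CLDN6) in place of 0, and 11 genes of the other 8 lists in place of 0, of which 9 were lower (7 of the 6 epithelial lists, all lower, and 4 of the repressor and keratin linker lists, 2 lower). Without a filter (rows above 0 in at least 1 library), 0 genes passed limma's adjustment, with 2739 at an unadjusted p under 0.05. A pseudocount of 0.1 moved the median of the 10 genes from -0.84 to -1.31. With 1 library left out (the lone library of its group is assumed to vary like the others), 0 to 14 genes passed, the lowest without DMSO replicate 1, 10 without SB replicate 1 and 9 without SB replicate 2; 0 of the 10 genes passed, with 5 or 6 at an unadjusted p under 0.05, and their median lay between -0.97 and -0.73. The cause of these shifts was not tested. Fragment numbers were recovered for CLDN3 alone among the 10 genes, so counting error could not be given for the others.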
